A study of Mus musculus with 6 samples.

Results

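The G1 cyclins, their partner kinases and the inhibitors of those kinases were examined in the 889 murine lung cancer cell line, as the 10 genes Ccnd1, Ccnd2, Ccnd3, Ccne1, Cdk4, Cdk6, Cdkn1b, Cdkn2a, Cdkn2b and Cdkn2c. They were taken by gene name from the 34745 genes of the count files. Of the 10 genes, 8 had more than 500 counts over the 6 libraries and entered the test of 10046 genes, and Cdkn2a and Cdkn2b had 0 counts in every library. The study asked which genes respond to the loss of KIAA1522, and it compared RNA of 889 cells expressing Cas9 with a control sgRNA (sg-con, 3 libraries) with RNA of 889 cells expressing Cas9 with an sgRNA against kiaa1522 (sg-kiaa1522, 3 libraries). Per the labels the cells are of the C57BL/6 strain, and their treatment is given as control or as KIAA1522-downregulated. Per the study's methods, the sgRNAs were delivered in lentiCRISPRv2, the control vector carried an sgRNA against EGFP, and transduced cells were selected with puromycin or by sorting. Which sgRNA these cells carried, and whether they were a clone or a pool, is not given in the sources used here. Nothing in the labels says that the libraries came from separate cultures, so the p-values measure the spread between these libraries, which may be technical.

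The libraries held between 12220001 and 18609376 counts. The targeted gene, listed as C77080, had 127 ± 2.93 CPM (counts scaled to the TMM-normalized library size, SD, n = 3) in sg-con and 210 ± 6.38 CPM (n = 3) in the libraries labelled sg-kiaa1522, a log2 fold change of 0.73 (adjusted p = 9.1e-05, edgeR's quasi-likelihood test). The mRNA was thus higher in the libraries labelled as downregulated. A Cas9 edit that shifts the reading frame need not lower the mRNA, and protein was not measured in these libraries, so this level does not check the knockout, and each direction below is one for libraries in which this mRNA was higher. The epithelial keratins Krt8, Krt18 and Krt19 were abundant in all 6 libraries, and Epcam, another epithelial marker, had 0 counts in all of them. Of 11 lung epithelial markers 5 were tested, and 4 were lower and 0 higher at an adjusted p of at most 0.05. Of all tested genes, 26.3% were lower and 26.3% higher. Among the 4 was Cdh1, with a log2 fold change of -1.45 (adjusted p = 5.1e-05, edgeR's quasi-likelihood test). The summed level of the 11 markers ranged from 3892 to 4596 CPM in sg-con and from 3264 to 3511 CPM in sg-kiaa1522. Nearly all of it came from Krt8, Krt18 and Krt19. For 6 immune markers the sums were 2.37 to 5.74 and 11.2 to 13.9 CPM. That rise was in Cd68 alone (19 to 23 counts in sg-con and 122 to 235 in sg-kiaa1522), while Lyz2 and Ptprc had lower means in sg-kiaa1522 (2.27 and 0.925 CPM, and 0.406 and 0.103 CPM), Cd79a was near 0 and Adgre1 and Cd3e had 0 counts. For 4 endothelial markers the sums were 0.809 to 1.66 and 0.942 to 1.24 CPM, and for 6 fibroblast and smooth muscle markers 48.0 to 53.1 and 24.1 to 35.8 CPM. The fibroblast and smooth muscle sums came almost wholly from Pdgfrb (means of 43.1 CPM in sg-con and 26.3 CPM in sg-kiaa1522) and Col1a1 (7.01 and 1.74 CPM). Dcn, Pdgfra and Acta2 were near 0, and Thy1 had 0 counts. The part of these differences in the results for the cell cycle genes was not tested.

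D-type cyclins, encoded by Ccnd1, Ccnd2 and Ccnd3, are made in response to growth signals and activate the kinases Cdk4 and Cdk6, which phosphorylate the retinoblastoma protein and its relatives. E2F transcription factors are then released, and among their targets is cyclin E, encoded by Ccne1, which activates Cdk2 and carries the cell into S phase. The INK4 inhibitors, encoded by Cdkn2a, Cdkn2b and Cdkn2c, bind Cdk4 and Cdk6, and p27, encoded by Cdkn1b, is a CIP/KIP protein that inhibits cyclin E with Cdk2. In lung adenocarcinoma this pathway is often altered, through loss of CDKN2A or gain of a cyclin or kinase gene.

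In the libraries labelled sg-kiaa1522, Ccnd2 was 1.79-fold, Ccne1 1.69-fold and Cdk6 1.29-fold higher than in sg-con, and Cdk4 was lower, at 0.663 times its sg-con level. Ccnd1, Ccnd3, Cdkn1b and Cdkn2c did not pass the test. Thus 1 of the 8 tested genes was lower and 3 were higher at an adjusted p of at most 0.05, against 26.3% (lower) and 26.3% (higher) of all 10046 tested genes, 52.5% taking both directions. None of the 8 passed the threshold given in the study's methods (below, the threshold of the study), which also asks for a log2 fold change of 1 or more in either direction and which 4.34% (lower) and 2.74% (higher) of tested genes passed, 7.08% in all. The legend of the study's volcano plot gives a larger fold change, which none of the 8 reached either. The groups did not overlap for 5 of the 8 genes, 2 lower and 3 higher, and they did not overlap for 31.1% (lower) and 30.6% (higher) of all tested genes, 61.7% in all. The median log2 fold change of the 8 genes was 0.066 and that of all tested genes was -0.0067. In bulk RNA, a change in the number of cells at a given stage of the cycle and a change in RNA per cell cannot be told apart.

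**Figure D1:**
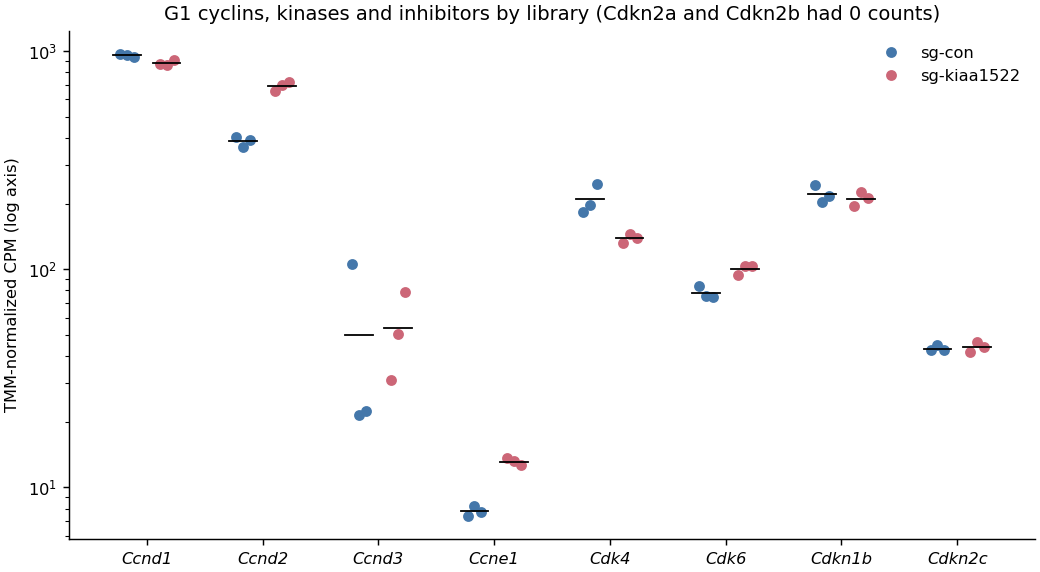
TMM-normalized CPM on a log axis for the 8 G1 genes with counts, with 1 point per library (sg-con in blue, sg-kiaa1522 in red, n = 3 each) and a bar at the group mean. Ccnd2, Ccne1 and Cdk6 lie higher and Cdk4 lies lower in all 3 sg-kiaa1522 libraries, and the Ccnd3 points are spread widely within both groups.

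The promoters of the 2 kinases that moved in opposite directions and of Cdkn2a, which had 0 counts, are shown. Each is given as the 250 bases before the RefSeq start (build GRCm38.p6, 5′ to 3′ in the direction of the gene). The table of RefSeq starts had 11 windows for 8 of the 10 genes, with none for Ccnd1 and Ccnd2. Capitals mark CACGTG, the E-box that Myc binds with Max, or an E2F motif, searched on both strands as TTTCCCGC, TTTGGCGC, TTTCGCGC or TTTGCCGC. The windows searched run from 250 bases before the start to 50 after it. The stretches printed, which leave out the 50 bases after the start, are chr10:127063285-127063534 (plus strand) for Cdk4, chr5:3343643-3343892 (plus strand) for Cdk6, and chr4:89294620-89294869 (minus strand) for the outer of the 2 Cdkn2a starts.
Cdk4: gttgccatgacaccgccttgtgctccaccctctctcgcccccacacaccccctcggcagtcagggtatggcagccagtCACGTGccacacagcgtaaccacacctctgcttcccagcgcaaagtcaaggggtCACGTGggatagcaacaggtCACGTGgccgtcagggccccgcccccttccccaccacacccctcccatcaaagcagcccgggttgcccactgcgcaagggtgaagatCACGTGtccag
Cdk6: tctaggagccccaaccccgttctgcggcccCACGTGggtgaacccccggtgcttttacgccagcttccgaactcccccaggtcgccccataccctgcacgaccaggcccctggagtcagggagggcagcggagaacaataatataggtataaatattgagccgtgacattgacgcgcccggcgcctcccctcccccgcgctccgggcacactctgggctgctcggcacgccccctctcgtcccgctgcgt
Cdkn2a: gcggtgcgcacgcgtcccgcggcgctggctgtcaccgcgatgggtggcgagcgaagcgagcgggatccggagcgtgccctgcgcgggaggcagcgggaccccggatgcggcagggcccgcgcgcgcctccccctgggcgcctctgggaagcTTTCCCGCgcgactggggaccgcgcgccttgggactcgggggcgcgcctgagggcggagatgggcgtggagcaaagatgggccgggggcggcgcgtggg

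The Cdk4 window held 4 copies of CACGTG, with first bases 172, 118, 98 and 11 bases before the start. At least 1 copy was present in 7.15% of the 32851 mouse start windows in the table, some of which overlap, and 4 or more copies were present in 8 of them (0.0244%). Cdk6 had 1 copy, 220 bases before its start, and the second Cdkn2c start had 1 copy 34 bases after it. The E2F motif was present only in the outer Cdkn2a window among the 11, 99 bases before the start, and in 2.26% of all windows. The Ccne1 window held none of these letters. The cAMP response element TGACGTCA was present in the Cdkn2b window, 46 bases before the start, and in 1.79% of all windows, and the AP-1 motif TGANTCA was in none of the 11, against 7.81% of all windows. These matches describe the letters and not binding.

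Among the D-type cyclins, Ccnd1 (ENSMUSG00000070348, chr7:144929931-144939925, minus strand) was the most abundant per exon length. The sg-con libraries had 965, 959 and 938 CPM and the sg-kiaa1522 libraries 867, 862 and 913 CPM. The 3 sg-kiaa1522 values were all under the sg-con values, by a margin that did not pass the test. This amounted to a log2 fold change of -0.12 (standard error 0.052, 95% interval -0.24 to 0.0049, adjusted p = 0.096, edgeR's quasi-likelihood test). On the TPM scale, which divides counts by exon length and by each library's own sum, the groups overlapped, at 520 ± 17.7 and 512 ± 24.1 TPM (SD, n = 3 each). The antisense gene LTO1, listed as Oraov1 in the files, shares 23.4% of the exon length of Ccnd1. It had 220 to 277 counts in sg-con and 113 to 180 in sg-kiaa1522, against 10528 to 17772 counts for Ccnd1, and whether the counting used strand is not given in the sources used here.

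Ccnd2 (ENSMUSG00000000184, chr6:127125162-127152193, minus strand) had the largest change of the 10 genes by log2 fold change. It had 403, 363 and 391 CPM in sg-con and 656, 701 and 719 CPM in sg-kiaa1522. The lowest sg-kiaa1522 library was above the highest sg-con library by more than the spread within either group. The log2 fold change was 0.84 (standard error 0.066, 95% interval 0.69 to 1.00, adjusted p = 8.9e-05, edgeR's quasi-likelihood test), and it stayed between 0.79 and 0.88 when any one library was left out. The upper end of the interval lies just under the fold change threshold of the study. The 3 tested genes whose centred log2 profile over the 6 libraries was nearest to that of Ccnd2 were Agpat5, Gtpbp4 and Rabl6, with root mean square differences of 0.027, 0.031 and 0.038 in log2 CPM and log2 fold changes of 0.87, 0.87 and 0.83.

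Ccnd3 (ENSMUSG00000034165, chr17:47505051-47599691, plus strand) differed more between libraries of the same label than between labels. The sg-con libraries had 106, 21.4 and 22.3 CPM, from 1849, 396 and 372 counts, and the sg-kiaa1522 libraries had 31.1, 50.6 and 78.9 CPM, from 377, 928 and 1339 counts. The first sg-con library was above all the others, and the remaining sg-con libraries were below all 3 sg-kiaa1522 libraries. The highest value was 4.97 times the lowest within sg-con and 2.54 times within sg-kiaa1522, and 19 of the tested genes (0.189%) had ratios at least that large in both groups. The log2 fold change of 0.10 had a standard error of 0.64 and a 95% interval of -1.39 to 1.60 (adjusted p = 0.90, edgeR's quasi-likelihood test). Without the first sg-con library it was 1.29 (adjusted p = 0.023 in the same edgeR fit), past the threshold of the study. Without sg-con replicate 2, sg-con replicate 3 or sg-kiaa1522 replicate 3 it was -0.27, -0.25 and -0.28.

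Of the 10 lung epithelial markers with counts, 4 were highest within sg-con in the first library, as Ccnd3 was, and 6 were not. Scgb1a1, the club cell secretoglobin, had 293, 31 and 42 counts in sg-con and 21, 28 and 75 in sg-kiaa1522. Sftpc, the alveolar surfactant protein C, had 110, 20 and 45 counts in sg-con and 8, 15 and 25 in sg-kiaa1522. Both were highest in the library in which Ccnd3 was highest, as were Sftpa1 and Hopx at 29 and 10 counts, while Krt8, Krt18, Krt19 and Cdh1 were lowest within sg-con there and Napsa had 19, 18 and 21 counts. Nkx2-1, the lung lineage transcription factor, was spread widely as well, with 970, 1096 and 227 counts in sg-con and 132, 174 and 671 in sg-kiaa1522. Genes outside the lung lineage were spread within groups too, such as Suz12, a Polycomb gene, with 174, 54.8 and 49.4 CPM in sg-con and 165, 81.6 and 82.8 CPM in sg-kiaa1522, and Tfdp2, an E2F partner, with 33.3, 79.4 and 25.1 CPM in sg-con and 43.2, 40.4 and 111 CPM in sg-kiaa1522. Whether the assignment of reads to genes differed between libraries is not known from the sources used here, and the part of that or of the markers in the Ccnd3 values was not tested. Bysl, which is antisense to the end of Ccnd3 and shares 4.11% of its exon length, had 619, 712 and 632 counts in sg-con and 927, 1148 and 1198 in sg-kiaa1522 (log2 fold change 0.90, adjusted p = 2.5e-04, edgeR's quasi-likelihood test). It was even within sg-con, where Ccnd3 was not, and higher in sg-kiaa1522. The annotation has 21 transcripts of Ccnd3 and RefSeq has 2 starts, which gene counts do not separate, and the pseudogene Ccnd3-ps had 9 to 21 counts per library.

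Per exon length, Ccnd1 held most of the D-type cyclin transcripts in both groups, and its share was smaller in sg-kiaa1522. Ccnd1 made up 78.9%, 83.2% and 81.9% of the summed D-type cyclin TPM in the sg-con libraries and 71.6%, 69.5% and 69.4% in the sg-kiaa1522 libraries. Ccnd2 made up 16.5%, 15.8% and 17.1% in sg-con and 27.1%, 28.3% and 27.4% in sg-kiaa1522. Neither share overlapped between the groups, and the ratio of Ccnd1 to Ccnd2 went from 4.95 ± 0.280 to 2.54 ± 0.0935 (SD, n = 3 each). Ccnd3 held between 0.995% and 4.65% in sg-con and between 1.37% and 3.22% in sg-kiaa1522. The summed TPM of the 3 cyclins was 640 ± 38.3 in sg-con and 730 ± 41.1 in sg-kiaa1522. These shares depend on the length used, and with the mean transcript length in place of the exon length Ccnd2 held 31.2% in sg-con and 46.5% in sg-kiaa1522, and Ccnd1 63.5% and 48.6%.

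**Figure D2:**
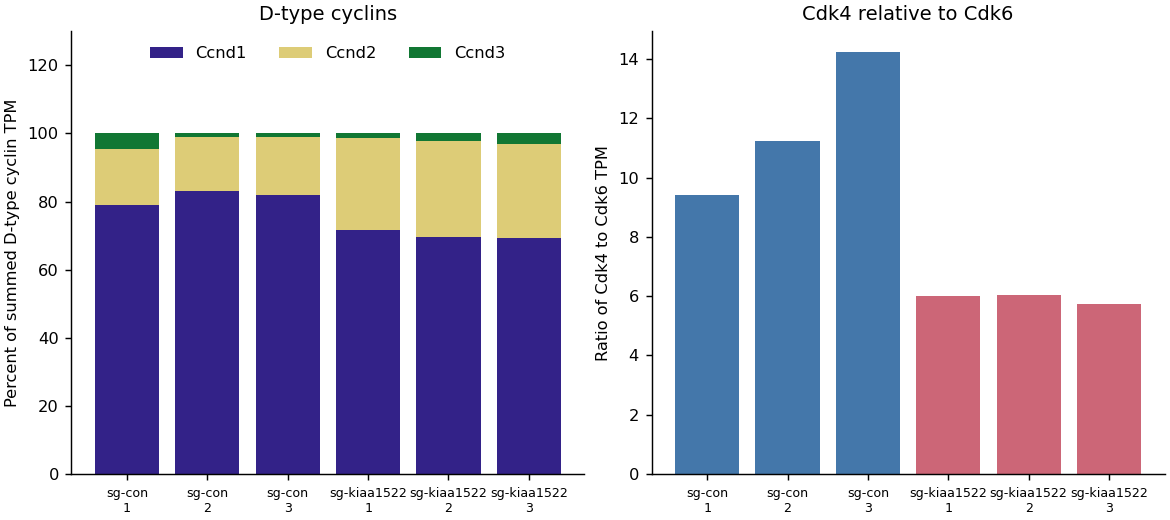
Left, percent of summed D-type cyclin TPM held by Ccnd1, Ccnd2 and Ccnd3 in each library. Right, ratio of Cdk4 to Cdk6 TPM in each library (1 bar per library, no error). The Ccnd2 segment takes 15.8% to 17.1% in sg-con and 27.1% to 28.3% in sg-kiaa1522, and the kinase ratio is 9.40 or more in each sg-con library and 6.04 or less in each sg-kiaa1522 library.

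Ccne1 (ENSMUSG00000002068, chr7:38097984-38107534, minus strand), which encodes cyclin E1, had the lowest group means of the tested G1 genes per exon length, within the spread of Ccnd3. It had 7.40, 8.25 and 7.68 CPM in sg-con and 13.6, 13.1 and 12.7 CPM in sg-kiaa1522, from 128 to 153 and 165 to 241 counts. All 3 sg-kiaa1522 libraries were above all 3 sg-con libraries. The log2 fold change was 0.75 (standard error 0.11, 95% interval 0.51 to 1.00, adjusted p = 9.5e-04, edgeR's quasi-likelihood test). Ccne2, the gene of the other cyclin E, had 23.4, 18.8 and 15.7 CPM in sg-con and 14.6, 20.2 and 18.8 CPM in sg-kiaa1522. Its groups overlapped and it did not pass the test (log2 fold change -0.11, adjusted p = 0.64, edgeR's quasi-likelihood test). The ratio of Ccne1 to Ccne2 TPM was 0.545 ± 0.116 in sg-con and 0.988 ± 0.205 in sg-kiaa1522 (SD, n = 3 each).

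The kinases that D-type cyclins activate went opposite ways. Cdk4 (ENSMUSG00000006728, chr10:127063534-127067920, plus strand) had 183, 197 and 246 CPM in sg-con and 132, 144 and 139 CPM in sg-kiaa1522. The sg-con libraries were spread more widely (SD 33.4 CPM) than the sg-kiaa1522 libraries (SD 6.31 CPM), and the groups did not overlap. Its log2 fold change was -0.59 (standard error 0.11, 95% interval -0.86 to -0.33, adjusted p = 0.0035, edgeR's quasi-likelihood test). Tspan31, which lies antisense to the end of Cdk4 and shares 19.7% of its exon length, was lower as well, with a log2 fold change of -0.23 (adjusted p = 0.029, same edgeR test). It had 1834 to 2118 counts in sg-con and 1181 to 1763 in sg-kiaa1522, against 3188 to 4107 and 1599 to 2646 for Cdk4. Whether the counting used strand is not given, and the part of shared reads in the Cdk4 values was not tested.

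Cdk6 (ENSMUSG00000040274, chr5:3341485-3531008, plus strand) had 83.8, 75.3 and 74.6 CPM in sg-con and 94.4, 103 and 104 CPM in sg-kiaa1522. Every sg-kiaa1522 library was above every sg-con library, and the fold change was smaller than those of Ccnd2 and Ccne1. Its log2 fold change was 0.37 (standard error 0.076, 95% interval 0.19 to 0.54, adjusted p = 0.0051, edgeR's quasi-likelihood test). Per exon length Cdk4 exceeded Cdk6 in every library. The ratio of Cdk4 to Cdk6 TPM was 9.40, 11.2 and 14.2 in sg-con and 6.01, 6.04 and 5.75 in sg-kiaa1522. The groups did not overlap, and the sg-con libraries differed among themselves by more than the sg-kiaa1522 libraries did. With the mean transcript length the ratio averaged 7.44 in sg-con and 3.79 in sg-kiaa1522. The summed TPM of both kinases was 179 ± 23.4 in sg-con and 136 ± 6.18 in sg-kiaa1522 (SD, n = 3 each).

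The inhibitors with counts did not pass the test. Cdkn1b (ENSMUSG00000003031, chr6:134920401-134925513, plus strand), which encodes p27, had 244, 203 and 218 CPM in sg-con and 194, 226 and 211 CPM in sg-kiaa1522. The groups overlapped, and the log2 fold change of -0.074 had a 95% interval of -0.28 to 0.13 (adjusted p = 0.51, edgeR's quasi-likelihood test). Cdkn2c (ENSMUSG00000028551, chr4:109660876-109667189, minus strand), which encodes the INK4 protein p18, had 42.5, 44.7 and 42.5 CPM in sg-con and 41.8, 46.5 and 43.8 CPM in sg-kiaa1522. Its groups overlapped too, with a log2 fold change of 0.028 and a 95% interval of -0.15 to 0.21 (adjusted p = 0.79, same edgeR test). The summed TPM of both inhibitors was 166 ± 14.4 in sg-con and 171 ± 11.4 in sg-kiaa1522. The exact two-sided permutation test of CPM gave 0.1, the smallest p that 3 libraries against 3 allow, for Ccnd1, Ccnd2, Ccne1, Cdk4 and Cdk6, and 0.8, 0.5 and 0.7 for Ccnd3, Cdkn1b and Cdkn2c.

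Cdkn2a (ENSMUSG00000044303, chr4:89274471-89294653, minus strand), which encodes the Cdk inhibitor p16Ink4a and, from its outer start, p19Arf, had 0 counts in each of the 6 libraries, as did its neighbour Cdkn2b (ENSMUSG00000073802, chr4:89306299-89311039, minus strand), which encodes p15Ink4b. A count of 0 allows up to 3 counts in a library, or 0.161 to 0.245 CPM at these depths, which covers counting error only. In the files 16246 genes (46.8%) had 0 counts in all libraries. Of the other 4 genes listed between Mtap and Dmrta1, 2 had 0 counts in every library and the highest count was 2. Mtap, the methylthioadenosine phosphorylase gene whose end lies 93.4 kb from Cdkn2a, was by contrast abundant, at 15600, 16347 and 15549 counts in sg-con and 12212, 19446 and 17836 in sg-kiaa1522. Its log2 fold change was 0.20 (adjusted p = 0.015, edgeR's quasi-likelihood test, and 0.0044 to 0.083 over the alternatives). Dmrta1, which starts 368 kb beyond Cdkn2b, had 2 to 9 counts per library.

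**Figure D3:**
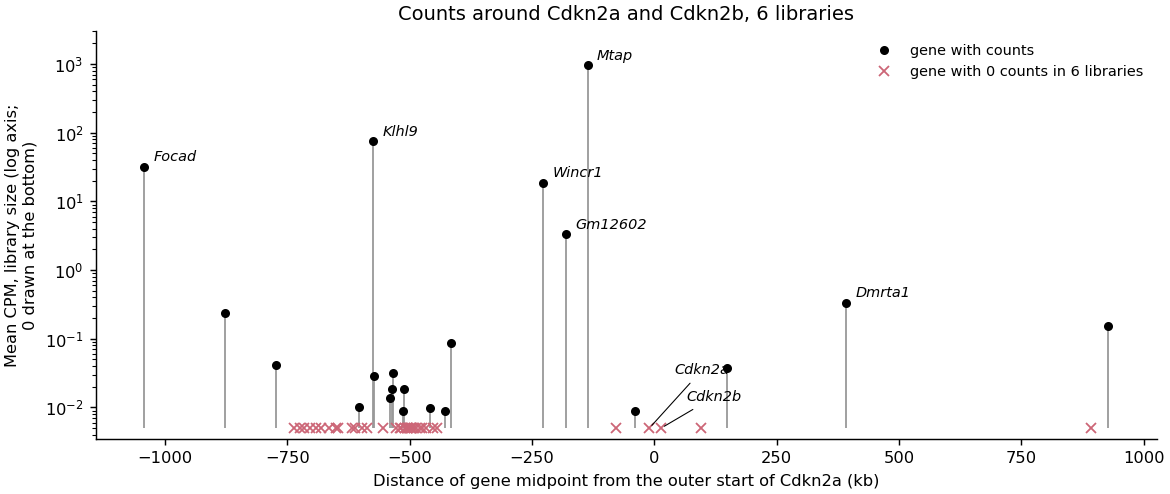
Mean CPM over the 6 libraries (log axis, with 0 drawn at the bottom as crosses) of the genes around Cdkn2a and Cdkn2b, by distance of the gene midpoint from the outer Cdkn2a start. Cdkn2a and Cdkn2b are at 0, and Mtap on the left is the highest point of the region.

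Other genes of the Cdkn2a and Cdkn2b locus list, which holds their Polycomb repressors, were called in both directions. Of its 12 genes 11 were tested, of which 2 were lower and 5 were higher, beside 26.3% of all tested genes in each direction. Ring1 and Rnf2, which encode the E3 ligases of Polycomb repressive complex 1, had log2 fold changes of -0.47 and -0.35 (adjusted p = 0.0062 and 0.0054 from edgeR's quasi-likelihood test). Bmi1, a partner of these ligases that represses Cdkn2a, had 0.61 (adjusted p = 0.0018, same test). The largest rise was that of Ets2, an activator of p16Ink4a, with 0.71 (adjusted p = 2.2e-04, same test), and Cdkn2aip, an Arf-interacting gene, had 0.41 (adjusted p = 0.014). Cdkn2a and Cdkn2b were at 0 counts in both groups beside these differences.

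Per exon length, the order of the G1 genes in sg-con was Ccnd1, Cdk4 (165 ± 24.1 TPM), Cdkn1b (125 ± 14.4), Ccnd2 (105 ± 7.56), Cdkn2c (41.3 ± 1.06), Ccnd3 (14.8 ± 14.7), Cdk6 (14.3 ± 1.27) and Ccne1 (7.49 ± 0.305). In sg-kiaa1522 it was Ccnd1, Ccnd2 (201 ± 11.4 TPM), Cdkn1b (126 ± 9.16), Cdk4 (116 ± 5.14), Cdkn2c (44.9 ± 2.25), Cdk6 (19.6 ± 1.15), Ccnd3 (16.7 ± 7.75) and Ccne1 (13.5 ± 0.368). With exon length Cdk4 was thus above Ccnd2 in sg-con and below it in sg-kiaa1522. With the mean transcript length Ccnd2 was above Cdk4 in both groups, at 315 and 260 TPM in sg-con and 582 and 178 TPM in sg-kiaa1522. That length also put Ccnd3 (57.3 and 62.6 TPM) and Cdk6 (35.3 and 46.8 TPM) above Cdkn2c (32.4 and 33.9 TPM) in both groups. The TPM values of Ccnd3 overlapped those of Cdk6 and Ccne1 in both groups, and those of Cdkn1b and Cdk4 overlapped in sg-kiaa1522, so with exon length these neighbours are not ordered beyond the spread of the libraries.

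The rest of the G1/S machinery, a list of 44 further genes of which 40 were tested, held calls in both directions, at shares near those of all tested genes (26.3% lower, 26.3% higher). In it 9 genes were lower, 11 were higher and 20 did not pass the test, none passed the threshold of the study, and the median log2 fold change was -0.048. Without sg-kiaa1522 replicate 2, or with the replicate number as a block, the list had 5 lower genes. Of all genes, 2077 and 2111 were lower in these 2 settings, against 2639 in the main fit. Cdk2, the partner of cyclin E, had the largest fall, from 35.1, 35.2 and 33.7 CPM in sg-con to 25.9, 15.8 and 16.8 CPM in sg-kiaa1522 (log2 fold change -0.84, adjusted p = 0.0063, edgeR's quasi-likelihood test). Its 3 sg-kiaa1522 libraries were all below the sg-con libraries but differed among themselves, and without the first of them the log2 fold change was -1.09 (adjusted p = 6.0e-04, same test), past the threshold of the study. Cdk2 and Cdk4 were thus both lower while Ccne1 and Ccnd2 were higher. Pkmyt1, an inhibitory kinase of Cdk1, and Hdac1, a deacetylase recruited by the retinoblastoma protein, followed with -0.80 and -0.68 (adjusted p = 5.1e-04 and 6.9e-04, same test).

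Myc, a transcription factor that binds CACGTG and is known to drive Ccnd2 and Cdk4, had the largest rise of the list. It had 123, 118 and 118 CPM in sg-con and 210, 203 and 205 CPM in sg-kiaa1522 (log2 fold change 0.78, adjusted p = 6.7e-05, edgeR's quasi-likelihood test). Every sg-kiaa1522 library was above every sg-con library. Its part in the levels of Ccnd2 and Cdk4 was not tested. Wee1, an inhibitory kinase of Cdk1 and Cdk2, and Lin54, a DNA-binding subunit of the DREAM complex, had 0.65 and 0.62 (adjusted p = 0.0062 and 0.018, same test).

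**Figure D4:**
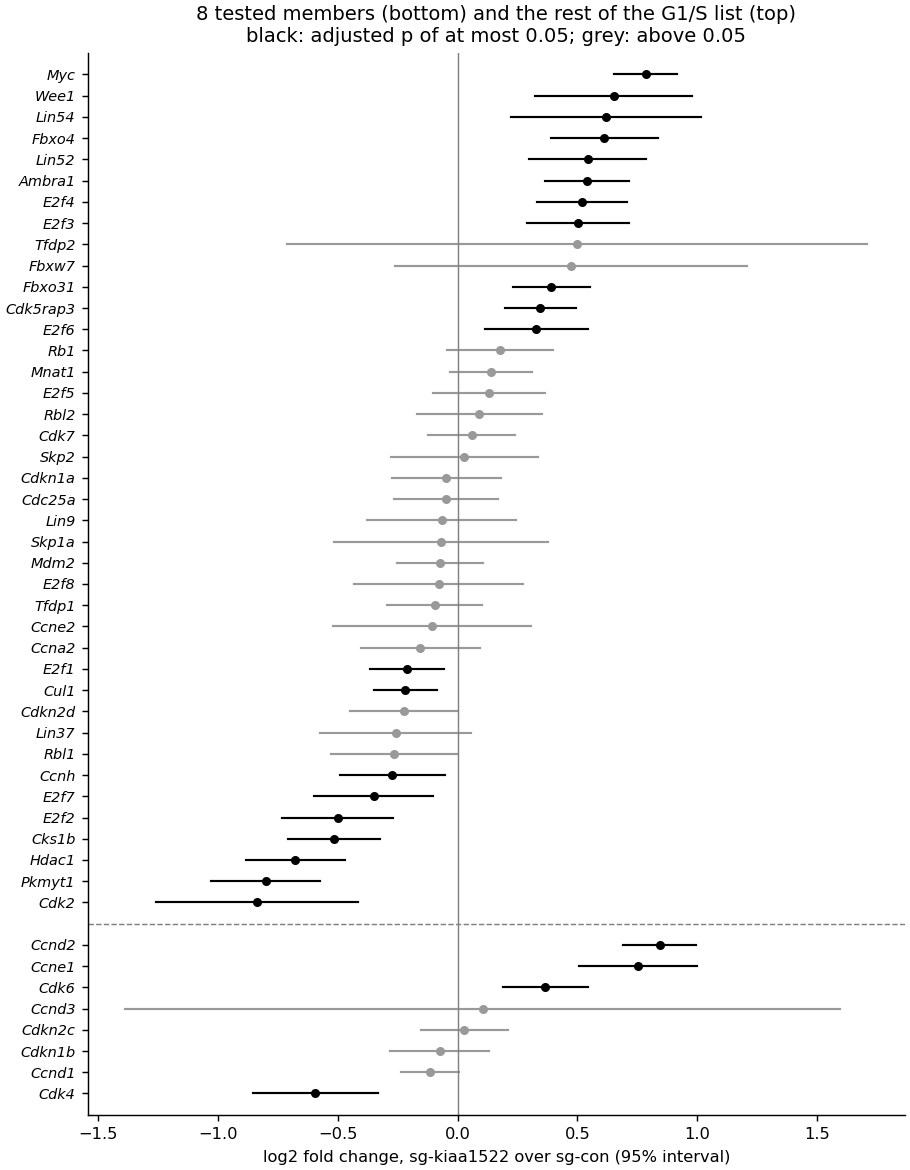
Log2 fold change of sg-kiaa1522 over sg-con with 95% intervals from edgeR, for the 8 tested G1 genes (below the dashed line) and the 40 tested genes of the rest of the G1/S list (above it), in black where the adjusted p was at most 0.05. Ccnd2, Ccne1 and Cdk6 lie right of 0 and Cdk4 left of 0, and Ccnd3 has the widest interval.

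Among the other Cdk inhibitors, Cdkn1a, which encodes p21, had 105 ± 13.7 CPM in sg-con and 101 ± 1.22 CPM in sg-kiaa1522 (SD, n = 3 each), and Cdkn2d, the INK4 gene of p19Ink4d, had 41.5 ± 4.44 and 35.5 ± 0.665 CPM. Neither passed edgeR's quasi-likelihood test (log2 fold changes -0.048 and -0.23, adjusted p = 0.70 and 0.083). Without the first sg-con library the adjusted p of Cdkn2d was 0.014. Cdkn1c, the gene of p57, had 0 counts in every library. The detected inhibitors of both families were therefore Cdkn1a, Cdkn1b, Cdkn2c and Cdkn2d. Trp53, whose product induces Cdkn1a, had 14, 12 and 71 counts in sg-con and 16, 95 and 70 in sg-kiaa1522 and was under the filter.

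The pocket protein genes, whose products are the substrates of cyclin D with Cdk4 or Cdk6, did not pass the test. Rb1 had a log2 fold change of 0.18, Rbl1 of -0.27 and Rbl2 of 0.091 (adjusted p = 0.15, 0.081 and 0.52, edgeR's quasi-likelihood test). Without the first sg-con library Rb1 had 0.26 (adjusted p = 0.015, same test). The E2F genes were divided. The activator E2f3 and the repressors E2f4 and E2f6 were higher, with 0.50, 0.52 and 0.33 (adjusted p = 0.0030, 0.0015 and 0.020, same test). The activators E2f1 and E2f2 and the repressor E2f7 were lower, with -0.21, -0.50 and -0.35 (adjusted p = 0.029, 0.0045 and 0.027, same test). E2f5 and E2f8 did not pass, with 0.13 and -0.079. E2f1 kept its call under only 5 of 13 alternatives, E2f6 under 9 and E2f7 under 8, with adjusted p up to 0.11, 0.082 and 0.086.

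In a separate list of 32 genes that E2F factors activate at the entry into S phase, most were lower in sg-kiaa1522. Ccne1, which is of the same kind, was higher. Of the 32 genes, all tested, 29 were lower, 1 was higher and 2 did not pass the test (26.3% of all tested genes in each direction). The threshold of the study was passed by 6 of the lower genes. The list does not hold every such gene and was chosen with earlier results of these data known. The S phase cyclin genes Ccne2 and Ccna2, kept in the G1/S list, did not pass edgeR's quasi-likelihood test (log2 fold changes -0.11 and -0.16, adjusted p = 0.64 and 0.25). The median log2 fold change was -0.58, beside -0.0067 over all tested genes. Tyms, the thymidylate synthase gene, went from 19.2, 22.3 and 28.3 CPM to 5.68, 5.51 and 5.07 CPM (log2 fold change -2.10, adjusted p = 9.0e-05, edgeR's quasi-likelihood test). Tk1, thymidine kinase, and Rrm2, a ribonucleotide reductase subunit, had -1.61 and -1.12 (adjusted p = 7.4e-05 and 8.2e-05, same test). The 3 genes make deoxynucleotides for DNA synthesis, and in each the groups did not overlap.

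The gene of the list that was higher was Cdt1, a replication licensing factor, with 0.23 (adjusted p = 0.042, edgeR's quasi-likelihood test), a call that was lost under 8 of 13 alternatives. Ezh2 and Gins1 had -0.16 and -0.12 (adjusted p = 0.12 and 0.29, same test). The log2 fold change of Ccne1 (0.75) was thus above that of every gene of this list.

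**Figure D5:**
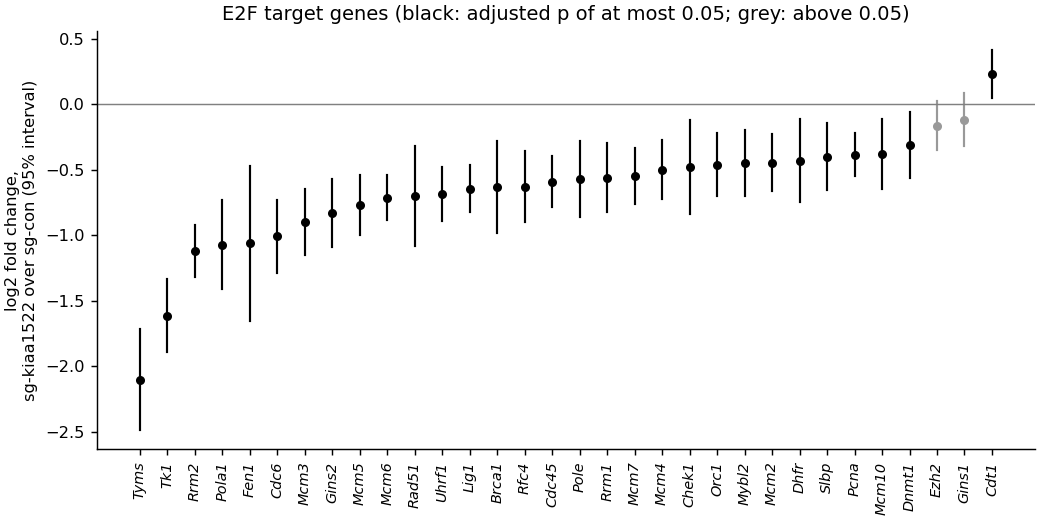
Log2 fold change of sg-kiaa1522 over sg-con with 95% intervals from edgeR for 32 E2F target genes, ordered by value, in black where the adjusted p was at most 0.05 and in grey above it. The points run from -2.10 for Tyms to 0.23 for Cdt1, and 31 of the 32 lie below 0.

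Of 20 factors and kinases known to raise or lower Ccnd1, Ccnd2 or Cdkn1b, 19 were tested, 4 were lower, 3 were higher and 12 did not pass the test, beside 26.3% of all tested genes in each direction. Fos, an AP-1 subunit, went from 283 ± 6.12 to 51.6 ± 10.3 CPM (SD, n = 3 each, log2 fold change -2.46, adjusted p = 2.7e-05, edgeR's quasi-likelihood test), and Egr1 went from 579 ± 16.8 to 223 ± 10.9 CPM (-1.37, adjusted p = 1.5e-05, same test). Both are immediate-early genes that serum induces. Fosl1, another AP-1 subunit gene, was higher, at 69.4 ± 9.47 and 175 ± 13.4 CPM (1.33, adjusted p = 1.1e-04, same test). Foxo1, which represses Ccnd2 and activates Cdkn1b, had -0.47 (adjusted p = 0.0015). Gsk3b, the kinase that marks cyclin D1 for export and breakdown, had 0.40 (adjusted p = 0.0045), and Etv5, an ETS factor downstream of ERK, had 0.25 (adjusted p = 0.025). Beside these differences Ccnd2 was higher, and Ccnd1 and Cdkn1b did not pass the test.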

How the data were processed

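Total RNA of 889 cells was sequenced in 6 libraries. Per the study's methods and the submitters' processing notes, the authors trimmed adaptors, removed rRNA reads, aligned what remained to GRCm38 using HISAT2 2.0.4 and counted uniquely mapped fragments per gene with StringTie 1.3.0. The deposited values are whole-number counts, not normalized, of 34745 Ensembl genes. Rows were joined by gene identifier, and 34267 identifiers matched GENCODE M21 on GRCm38, which gave positions and exon lengths. The annotation release and the strand setting of the counting are not given in the sources used here.

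The 10046 genes whose counts summed to more than 500, the filter of the study, were tested with edgeR 4.0.16 (R 4.3.3) by the quasi-likelihood test with TMM normalization, without covariates, and p-values were adjusted by Benjamini-Hochberg over all of them. Tested genes held 99.5% to 99.6% of the counts, the TMM factors lay between 0.989 and 1.01, and the common BCV (biological coefficient of variation) was 0.127. The test was tested on simulated data in which every gene had the same biological coefficient of variation. That setting does not cover genes spread as widely within groups as Ccnd3 was. Libraries of one group differed by more than counting noise (chi-square over its degrees of freedom 10.1 to 24.7), so all were kept as separate samples; repeat preparations of 1 RNA could differ as much. TPM was computed here from counts and summed exon length. The 10 genes and all lists were chosen with earlier results of these data known. The genes named are the 10 genes, the targeted gene, every E2F and pocket protein gene with Ccne2, Cdk2, Cdkn1a, Cdkn1c and Cdkn2d, up to 3 largest rises and 3 largest falls among called genes of each list, the genes nearest to Cdkn2a, and the 3 genes nearest in profile to Ccnd2. Overlapping genes, and Cdt1, Ezh2, Gins1, Trp53, Suz12, Tfdp2 and the cell type markers were named after their values were seen or for their position. Alternatives were RLE size factors, library size alone, edgeR's likelihood ratio test, the Wald test of DESeq2 1.42.0, 2 other filters, the replicate number as a block, each library left out, and mean transcript length for TPM.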

Additional observations from a re-analysis of the deposited data

How the results depend on the processing

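Ccnd2, Ccne1, Cdk4 and Cdk6 kept their direction and their call under all 13 alternatives, and Ccnd1 and Cdkn1b stayed uncalled in the same direction. With any one library left out, the log2 fold change of Ccnd3 ranged from -0.28 to 1.29 (-0.27, -0.25 and -0.28 without sg-con replicate 2, sg-con replicate 3 and sg-kiaa1522 replicate 3) and that of Cdkn2c from -0.012 to 0.065, and the number of G1 genes past the threshold of the study from 0 to 1. The ranges were -0.24 to 0.045 for Ccne2 (0.016 without sg-kiaa1522 replicate 1), -0.16 to 0.035 for Cdkn1a, -0.0058 to 0.20 for Rbl2 and -0.15 to 0.054 for E2f8 (0.014 without sg-con replicate 1). The G1/S list had 5 to 10 lower genes, with 5 without sg-kiaa1522 replicate 2, and the E2F target list 0 to 1 higher genes. Cdt1 was not called with library size alone, the likelihood ratio test, a filter of at least 1 count or the block (0 higher genes each). Filters set the counts past the threshold of the study, with 941 lower and 767 higher genes at 1 count or more and 812 and 607 with edgeR's filterByExpr, against 436 and 275, since more genes were tested.

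Same-numbered libraries did not deviate together (correlations over genes of -0.23, -0.053 and -0.17). The deviations were taken from group means of 3 libraries, so they cannot exclude that same-numbered libraries were prepared together. With the replicate block, the counts were 434 lower and 285 higher past the threshold of the study, 2111 and 2109 at an adjusted p of at most 0.05 against 2639 and 2638, and the G1/S list had 5 lower genes against 9. With mean transcript length, Ccnd1 held 63.5% (sg-con) and 48.6% (sg-kiaa1522) of the D-type cyclin TPM, Ccnd2 31.2% and 46.5%, Ccnd3 5.36% and 4.91%, and the ratio of Cdk4 to Cdk6 was 7.44 and 3.79. Ccne1 rests on 128 to 241 counts per library, and the standard error of its log2 fold change was 0.11. Within any one library, the 0 counts of Cdkn2a and Cdkn2b cannot be told from a level under 3 counts.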
